A study of Mus musculus with 8 samples.

Results

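The thrombospondins, tenascins and periostin are secreted proteins of the extracellular matrix, and 8 of their genes were examined in mouse tibialis anterior (TA) muscle after knockdown of *Uba1*, the gene of the main ubiquitin-activating enzyme. The 8 genes, taken by name from the 41709 genes of the deposited table, were *Thbs1*, *Thbs2*, *Thbs3*, *Thbs4*, *Tnc*, *Tnn*, *Tnxb* and *Postn*. This set was put together with results in view, since *Tnn* and *Thbs2* had been seen higher and *Thbs1* lower with *Uba1* siRNAs in these same muscles. The differences between groups are therefore given for these genes as descriptions, and where a threshold is mentioned for them it only describes the values that chose them. RNA-seq was done on 8 TA muscles of 4 male C57BL/6J mice at 3 months of age, 4 muscles for each kind of siRNA. In each mouse, the TA muscle of one leg was electroporated with a pool of siRNAs against *Uba1* and that of the other leg with control non-targeting (NT) siRNAs, at 1500 pmol in 30 μl, and the muscles were collected after 7 days. All 8 muscles, controls included, had thus been treated with hyaluronidase, injected and electroporated, and no untreated muscle was analyzed. In the labels, R marks every NT muscle and L every *Uba1* muscle, which means that an effect of the side cannot be told apart from one of the siRNAs. The titles name UBA1 for all muscles of the knockdown group, whereas the treatment tags of 3 of them name UBA2, UBA3 or UBA4. The titles and the methods were followed.

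Thrombospondins and tenascins are matricellular proteins, which bind cell surface receptors and matrix fibrils and adjust how cells adhere and respond to growth factors rather than building the matrix themselves. Thrombospondins 1 and 2 form trimers and carry the type 1 repeats that inhibit the growth of blood vessels, while thrombospondins 3 and 4 form pentamers, and thrombospondin 4 is known from tendon and muscle. Tenascin C is made where tissue is loaded, injured or remodeled, tenascin W (the product of *Tnn*) is known from bone and periosteum, and tenascin X is a tenascin of loose connective tissue whose loss makes tissue overly elastic. Periostin, named for the periosteum, binds collagen and promotes its crosslinking.

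The sequence just before the transcription start is shown for the 3 genes that led to this choice of genes, to set the 2 that were higher beside the one that was lower. Each is 250 bases long, ends at the base before the start of the canonical GENCODE M39 transcript and was read from GRCm39 in the direction of transcription. Capitals mark every match to 7 motifs searched on both strands, namely the AP-1 motif (TGANTCA), the CRE motif (TGACGTCA), the GC box motif (GGGCGG), the TATA box motif (TATAAA), the NF-kB motif, the TEAD motif (GGAATG) and the CArG box motif.
*Thbs1*, chr2:117941724-117941973, plus strand: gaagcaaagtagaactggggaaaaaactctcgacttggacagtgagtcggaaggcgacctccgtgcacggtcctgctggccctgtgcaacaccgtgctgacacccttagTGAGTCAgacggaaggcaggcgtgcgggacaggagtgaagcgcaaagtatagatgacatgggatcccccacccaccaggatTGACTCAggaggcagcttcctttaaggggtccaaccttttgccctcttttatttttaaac
*Thbs2*, chr17:14914529-14914778, minus strand: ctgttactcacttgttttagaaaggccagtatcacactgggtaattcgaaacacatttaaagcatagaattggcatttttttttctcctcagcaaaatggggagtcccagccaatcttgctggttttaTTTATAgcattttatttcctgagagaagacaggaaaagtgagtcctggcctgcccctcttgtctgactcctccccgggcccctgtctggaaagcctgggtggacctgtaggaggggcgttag
*Tnn*, chr1:159981151-159981400, minus strand: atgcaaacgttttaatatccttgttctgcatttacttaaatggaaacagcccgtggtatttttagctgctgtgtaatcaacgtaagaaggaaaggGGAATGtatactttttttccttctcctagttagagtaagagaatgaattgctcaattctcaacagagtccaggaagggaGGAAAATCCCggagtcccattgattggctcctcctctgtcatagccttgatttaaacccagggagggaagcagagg
The *Thbs1* sequence holds 2 matches to AP-1, the motif bound by Fos and Jun proteins, which begin 141 and 60 bases before the start. Of 21747 protein-coding promoters of the same length, 6.18% hold such a match. The *Tnn* sequence holds an NF-kB match on the opposite strand (76 to 67 bases before the start; 1.46% of promoters hold one) and a TEAD match (155 to 150 bases before it; 12.1% of promoters hold one). In *Thbs2*, a TATAAA on the opposite strand was the single match (11.9% of promoters hold one). Among the other 5 genes, *Thbs3* and *Thbs4* held GC boxes (36.3% of promoters do), *Thbs4* also held 2 overlapping TEAD matches, and *Tnc*, *Tnxb* and *Postn* held none of the 7 motifs in this window. These are matches of letters and not sites known to be bound.

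The 8 genes lie on 6 chromosomes of GRCm39. *Thbs1* (chromosome 2, 117941974 to 117957616, plus strand) has 22 exons in its canonical transcript, and 187 of its exonic bases are shared with the antisense lncRNA *Gm29233*, which was listed at 0 TPM. *Thbs2* (chromosome 17, 14885761 to 14914528, minus strand) and *Tnn* (chromosome 1, 159912599 to 159981150, minus strand) have 22 exons each. *Thbs3* (chromosome 3, 89122461 to 89134144, plus strand) begins beside *Mtx1*, a gene of the opposite strand that reached 7.03 TPM and shares no exonic base with it. *Thbs4* (chromosome 13, 92888095 to 92931501, minus strand), *Tnc* (chromosome 4, 63878014 to 63965443, minus strand), *Tnxb* (chromosome 17, 34879431 to 34938789, plus strand) and *Postn* (chromosome 3, 54268501 to 54298471, plus strand) complete the set. Antisense lncRNAs share 85 exonic bases with *Tnxb* and 80 with *Postn*, and the library kit does not mark strand, so reads from these bases cannot be assigned to one of the strands.

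The authors gave expression as TPM, a level per transcript length with the same total in each muscle, so that levels of different genes can be compared but the number of reads behind them is unknown. Differences between groups are log2 fold changes (log2FC) of TPM + 1, *Uba1* siRNAs minus NT siRNAs, from limma fitted to 11530 genes, those that reached 1 TPM in 4 muscles or more. For weakly expressed genes the added 1 makes this log2FC smaller than that of TPM itself. All 8 genes passed this filter. *Uba1* itself was at 60.6 ± 2.11 TPM with NT siRNAs and 15.9 ± 6.83 TPM with *Uba1* siRNAs (SD, n = 4 each). The log2FC was -1.98 (standard error 0.29; adjusted p = 0.0527 by limma, and 0.0278 with the mouse as a block), and the groups did not overlap. Markers of fast muscle fibers were abundant in every muscle, with *Acta1* at 38115 and 34390 TPM on average with NT and *Uba1* siRNAs and *Ckm* at 13838 and 13446 TPM. Over all genes, 3 of 11530 passed an adjusted p of 0.05 in limma (0.026%, all lower), and 57 with the block. The median log2FC of all genes tested was 0.11, and 81.8% of genes had a log2FC above 0. With median-ratio scaling the median was -0.0055 and that share 48.0%, so small positive log2FC values should be read against this shift.

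In control muscles, the level of these mRNAs spanned from *Thbs4*, at 92.5 ± 28.3 TPM (SD, n = 4), to *Tnn*, at 1.5 ± 1.43 TPM. *Thbs4* exceeded 94.2% of the genes tested, and its lowest control muscle, at 63.1 TPM, lay above the highest value of any other member, 40.9 TPM for *Thbs1*. *Thbs1* (31.1 ± 8.90 TPM), *Postn* (24.5 ± 11.7 TPM) and *Tnxb* (18.1 ± 3.30 TPM) came next. *Thbs1* was above *Postn* in 4 of 4 control muscles although their ranges overlapped, and *Postn* was above *Tnxb* in 2 of 4. A clear gap separated *Tnxb*, never under 15.5 TPM, from *Thbs3*, never over 9.08 TPM. *Thbs3* (7.24 ± 2.06 TPM), *Thbs2* (5.20 ± 1.83 TPM) and *Tnc* (4.11 ± 1.94 TPM) overlapped in range with their neighbours in this order, but each was above the next one in 4 of 4 muscles. In muscles with *Uba1* siRNAs, *Postn* stood above *Thbs1*, *Thbs2* above *Thbs3* and *Tnn* above *Tnc* by their means. *Tnn* and *Tnc* then overlapped in range, and *Tnn* was the higher of them in 2 of 4 muscles.

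*Tnn*, which encodes tenascin W, had the largest log2FC of the 8 genes. With NT siRNAs it was at 3.54, 0.255, 0.896 and 1.31 TPM in mice 1 to 4, and with *Uba1* siRNAs at 2.41, 8.80, 3.54 and 10.1 TPM. Its mRNA was low in 3 of 4 control muscles and high in the knockdown muscles of mice 2 and 4, while in mouse 1 the knockdown muscle was the lower one, so the groups overlapped. The means were 1.5 ± 1.43 and 6.21 ± 3.80 TPM (SD, n = 4 each), a ratio of 4.13. The log2FC was 1.52 (standard error 0.462, or 0.476 with the mouse as a block). The changes in single mice ran from -0.41 in mouse 1 to 2.96 in mouse 2.

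*Thbs2*, which encodes the thrombospondin best known from fibroblasts and connective tissue, was at 7.21, 2.91, 5.94 and 4.75 TPM with NT siRNAs in mice 1 to 4. With *Uba1* siRNAs it was at 9.55, 12.7, 9.55 and 14.1 TPM. Each knockdown muscle exceeded each control muscle, and *Thbs2* was the single member of which this was so. Groups that do not overlap, with the knockdown higher, were found for 10.6% of all genes tested. The means were 5.20 ± 1.83 and 11.5 ± 2.31 TPM (SD, n = 4 each), a ratio of 2.21. The log2FC was 1.04 (standard error 0.220, or 0.225 with the mouse as a block). As for *Tnn*, the ratio of the legs was lowest in mouse 1, at 1.33, and highest in mouse 2, at 4.36.

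*Thbs1* was the member that was lower with *Uba1* siRNAs. This gene encodes thrombospondin 1, which activates latent TGF-beta and is induced early after injury. Its mRNA was at 40.9, 29.8, 34.0 and 19.6 TPM with NT siRNAs in mice 1 to 4 and at 18.9, 21.7, 15.4 and 27.9 TPM with *Uba1* siRNAs. It was lower with *Uba1* siRNAs in mice 1, 2 and 3, whereas in mouse 4 the order was inverted and the ranges of the groups overlapped. The means were 31.1 ± 8.90 and 21.0 ± 5.30 TPM (SD, n = 4 each), a ratio of 0.675. The log2FC was -0.53 (standard error 0.229, or 0.246 with the mouse as a block). With 1 muscle left out it went from -0.73 (without the control muscle of mouse 4) to -0.39 (without that of mouse 1). Across the 8 muscles *Thbs1* and *Thbs2*, the trimeric thrombospondins, thus had log2FC values of opposite sign.

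**Figure D1:**
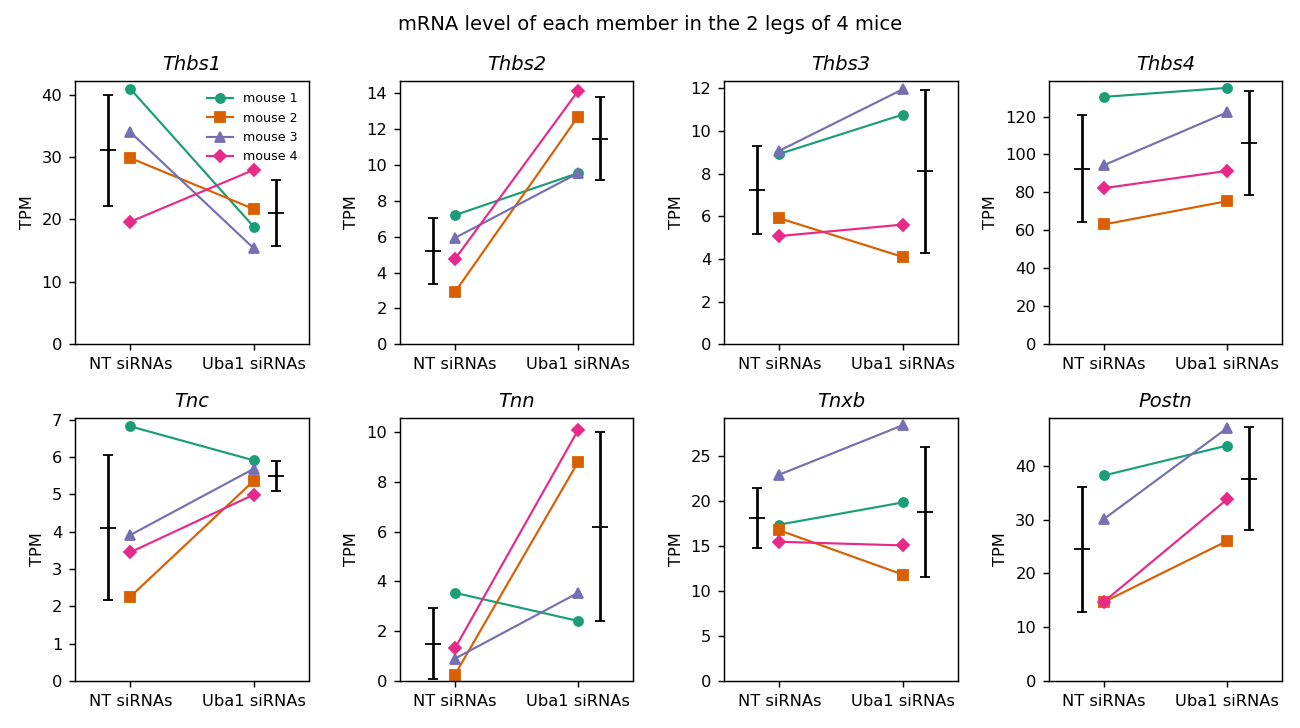
TPM of each of the 8 genes (vertical axes, each from 0) in muscles with NT siRNAs and with Uba1 siRNAs, with a line for the 2 legs of each mouse and black bars for the mean ± SD of the 4 muscles per group. Thbs2 was higher with Uba1 siRNAs in 4 of 4 mice without overlap, Tnn was higher in 3 of 4 and Thbs1 lower in 3 of 4.

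*Postn*, the gene of periostin, was at 38.2, 14.7, 30.1 and 14.8 TPM with NT siRNAs in mice 1 to 4 and at 43.8, 26.0, 47.0 and 33.8 TPM with *Uba1* siRNAs. It was higher in the knockdown leg of every mouse, but the groups overlapped: the control muscle of mouse 1 was above the knockdown muscles of mice 2 and 4, and that of mouse 3 above the knockdown muscle of mouse 2. The means were 24.5 ± 11.7 and 37.7 ± 9.58 TPM (SD, n = 4 each), with a log2FC of 0.69 (standard error 0.317, or 0.14 with the mouse as a block).

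*Tnc*, the gene of the injury-related tenascin C, was at 6.82, 2.26, 3.91 and 3.45 TPM with NT siRNAs and at 5.91, 5.36, 5.68 and 4.99 TPM with *Uba1* siRNAs in mice 1 to 4. The knockdown muscles were alike, with a coefficient of variation of 7.33% against 47.1% in the controls, and the control muscle of mouse 1 was above all of them. The log2FC was 0.41 (standard error 0.221), with 3 of 4 mice higher.

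The pentameric thrombospondins differed little between groups by their means. *Thbs4* was at 130.4, 63.1, 94.4 and 82.3 TPM with NT siRNAs and at 135.1, 75.4, 122.2 and 91.4 TPM with *Uba1* siRNAs, higher in 4 of 4 mice by ratios of 1.04 to 1.29. Its log2FC was 0.21 (standard error 0.237, or 0.0736 with the mouse as a block), but 0.076 with median-ratio scaling and 0.040 without the control muscle of mouse 2. *Thbs3* was at 8.93, 5.90, 9.08 and 5.07 TPM with NT siRNAs and at 10.8, 4.10, 11.9 and 5.61 TPM with *Uba1* siRNAs. Its ratios between legs ran from 0.694 in mouse 2 to 1.32 in mouse 3. Both genes were highest in mice 1 and 3 whichever siRNAs the leg had received. The log2FC of *Thbs3*, 0.073 (standard error 0.306), lay below the median of all genes and turned to -0.045 with median-ratio scaling and -0.038 with quantile normalization. *Tnxb*, the gene of tenascin X, was at 17.4, 16.7, 22.9 and 15.5 TPM with NT siRNAs and at 19.8, 11.8, 28.4 and 15.1 TPM with *Uba1* siRNAs. It was higher in 2 mice and lower in the other two, with a log2FC of -0.0062 (standard error 0.234), which was 0.0089 when TPM were rescaled without mitochondrial genes.

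**Figure D2:**
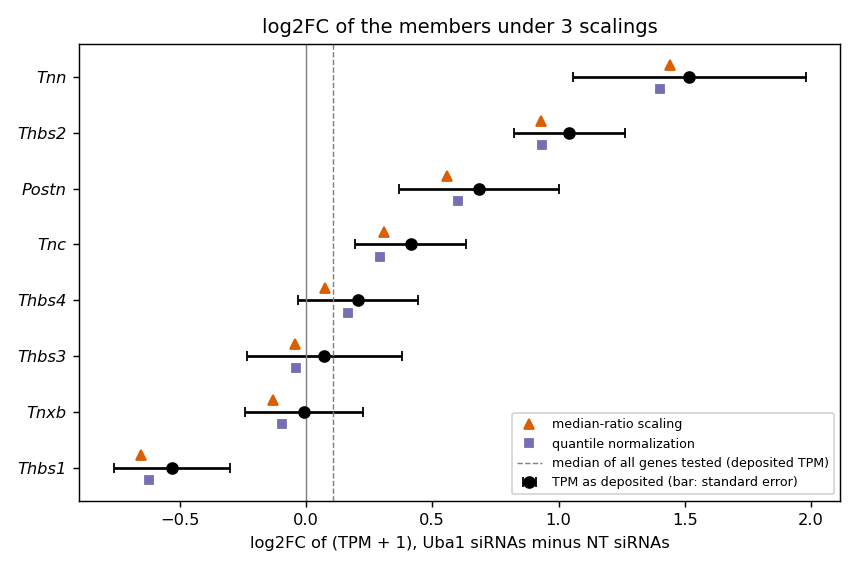
log2FC of TPM + 1 (horizontal axis, Uba1 siRNAs minus NT siRNAs) for the 8 genes, as black points with standard errors for deposited TPM, triangles for median-ratio scaling and squares for quantile normalization; the dashed line is the median of all genes tested, 0.11. Tnn, Thbs2, Postn, Tnc and Thbs4 lay above 0 and Thbs1 below 0 under each of the 3 scalings, while Thbs3 changed sign.

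Counted together, 6 of the 8 genes had a log2FC above 0, beside 81.8% of all genes tested, and 5 with median-ratio scaling, beside 48.0% of all genes. Their median log2FC was 0.31, beside 0.11 for all genes. *Postn*, *Thbs2* and *Thbs4* were higher in 4 of 4 mice, as were 32.2% of all genes tested, and no member was lower in all 4, as were 2.98% of genes. The thresholds of the study (P under 0.05, not adjusted, and a log2FC of more than 0.58 in size), applied here to the P of limma, were met by *Tnn* and *Thbs2*, in a table in which 0.442% of genes met them in the higher direction and 0.833% in the lower. Since these genes were chosen by this very contrast, nothing is read from that count. With the Kruskal-Wallis test, which the study used, *Thbs2* met them and *Tnn* did not. *Postn* was added with the mouse as a block or with TPM rescaled without mitochondrial genes, and *Thbs1*, as a lower gene, with median-ratio scaling or quantile normalization, but with block and median-ratio scaling together neither was.

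The mice differed as much as the groups did for several of these mRNAs. In *Thbs3*, *Thbs4*, *Tnc*, *Tnxb* and *Postn*, that is 5 of the 8, the 2 mice with the highest level were mice 1 and 3 with either kind of siRNA. *Thbs1* and *Thbs2* were also highest in mice 1 and 3 with NT siRNAs, and *Tnn* in mice 1 and 4. With *Uba1* siRNAs, *Tnn*, *Thbs1* and *Thbs2* differed from the other genes, with their highest levels in mice 4 and 2. Among control muscles, that of mouse 1 was the highest for 6 of the 8 genes and that of mouse 2 the lowest for 5. The remaining *Uba1* mRNA did not sort the muscles in the same way. The ratio of *Uba1* between the legs was lowest in mouse 2, at 0.115, and highest in mouse 4, at 0.391, and these were the 2 mice with the largest changes in *Tnn* and *Thbs2*.

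After the mean of each group was subtracted from log2(TPM + 1), which removes the contrast between groups, the 8 genes were compared in pairs. The closest pairs over the 8 muscles were *Thbs3* with *Tnxb* (Pearson r = 0.91), *Thbs4* with *Postn* (r = 0.90) and *Thbs2* with *Tnn* (r = 0.87). *Tnc* lay between these genes, with r = 0.82 to *Thbs4*, 0.80 to *Postn* and 0.72 to *Thbs2*. The lowest values were for *Tnn* with *Tnxb* (r = -0.53) and *Tnn* with *Thbs3* (r = -0.42). Of the 28 pairs, 22 had an r above 0 and the median was 0.45. The groups differed in this count, with 27 of 28 pairs above 0 over the 4 control muscles and 13 of 28 over the 4 knockdown muscles, so that a pooled r can join opposite orders: *Thbs2* and *Tnc* ranked the control muscles alike, but among knockdown muscles *Thbs2* was highest in mice 4 and 2 and *Tnc* in mice 1 and 3. These values describe 8 muscles from 4 mice, which are not independent, and muscles share whatever sets their composition.

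**Figure D3:**
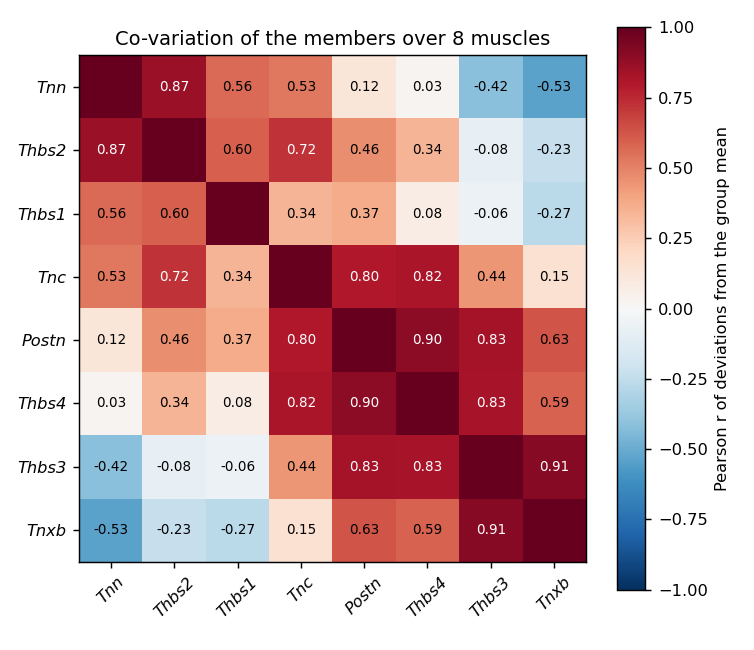
Pearson r between the deviations of log2(TPM + 1) from the group means over 8 muscles, for each pair of the 8 genes (color from -1 to 1, with r printed in each cell). Tnn and Thbs2 form one block (0.87) and Postn, Thbs4, Thbs3 and Tnxb another (0.59 to 0.91), with Tnc correlated with Thbs2, Postn and Thbs4. The blocks did not part alike in each group: Thbs2 with Thbs4 had r = 0.97 over control muscles and -0.86 over knockdown muscles.

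By the same measure, the gene most like *Tnn* among those tested was *Col12a1*, which encodes a collagen that lies on the surface of collagen I fibrils (r = 0.99 over the 8 muscles, and 1.00 without subtracting the group means). *Col12a1* was at 6.66, 1.28, 2.55 and 3.36 TPM with NT siRNAs and at 4.17, 16.5, 7.28 and 16.8 TPM with *Uba1* siRNAs in mice 1 to 4, so that it too was lower in the knockdown leg of mouse 1 and highest in those of mice 2 and 4. *Col11a1*, a fibrillar collagen of cartilage, was second for both *Tnn* (r = 0.96) and *Thbs2* (r = 0.94). The others nearest to *Tnn* were *Dnajc27*, *Fat4* and *Slc1a1* (r = 0.95, 0.95 and 0.94). For *Thbs2* the nearest were *Clec11a*, an osteogenic growth factor of bone marrow stroma (r = 0.94), then *Col11a1*, *Ecrg4* (r = 0.93), *Ccn5* (r = 0.91) and *Chad*, a matrix protein of cartilage and tendon (r = 0.91).

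Among the genes nearest to *Thbs1* were *Ccl21d*, *Ablim1*, *Errfi1* and *Ccn2* (r = 0.92, 0.90, 0.90 and 0.90). Without subtraction of the group means only *Errfi1*, a growth-factor-induced inhibitor of the EGF receptor, stayed close among these 4 (r = 0.93, against 0.12 to 0.37 for the others). *Ccl21d* belongs to a cluster of near-identical chemokine genes, so its TPM is uncertain. *Postn* was most like *Dlg3*, *Fat1*, *Eml4*, *Antxr1* and *Rusf1* (r = 0.97 to 0.98), and *Tnc* most like *Trim68*, *Magix*, *Fkbp4*, *Lzts1* and *Cpt2* (r = 0.94 to 0.99). With 8 muscles and 11530 genes, high values of r are found for any gene.

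The paralogs of these genes were *Comp* (thrombospondin 5), *Tgfbi* (the relative of periostin) and *Tnr* (tenascin R). *Comp*, a protein of cartilage and tendon, was at 11.1, 2.00, 7.55 and 3.07 TPM with NT siRNAs and at 9.18, 9.87, 6.36 and 10.4 TPM with *Uba1* siRNAs in mice 1 to 4, higher in mice 2 and 4 alone. Its log2FC was 0.72 (adjusted p = 0.346 by limma). *Tgfbi* was at 14.0 ± 2.56 and 16.9 ± 5.56 TPM (SD, n = 4 each; log2FC 0.22, adjusted p = 0.587 by limma). *Tnr*, a tenascin of the nervous system, was below the filter, at 0.0203 TPM and 0.00646 TPM on average with NT and *Uba1* siRNAs.

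Of 21 genes for receptors and cell surface partners of these proteins, 19 were tested and none passed the adjusted p over all genes. Of these 19, 12 had a log2FC above 0 (8 with median-ratio scaling), beside 81.8% (48.0%) of all genes tested. The median log2FC of the 19 was 0.083, beside 0.11 for all genes. The thrombospondin receptors *Cd36* and *Cd47* were at 121.6 and 7.44 TPM with NT siRNAs and at 138.8 and 8.44 TPM with *Uba1* siRNAs, with log2FC values of 0.19 and 0.15 (adjusted p = 0.317 and 0.600 by limma). *Sdc4*, a heparan sulfate proteoglycan of focal adhesions to which tenascin C and thrombospondins relate, was at 37.7 ± 4.36 and 22.1 ± 2.82 TPM (SD, n = 4 each). Its log2FC was -0.75, with an adjusted p of 0.0527 by limma and 0.00984 with the mouse as a block. *Itga5*, the fibronectin receptor chain, was at 15.3 ± 1.01 and 9.15 ± 1.56 TPM (log2FC -0.69, adjusted p = 0.0644 by limma, and 0.0478 with the block). *Itga5* also passed with median-ratio scaling, quantile normalization or TPM rescaled without mitochondrial genes (adjusted p = 0.00935, 0.00753 and 0.0180 by limma), and *Sdc4* among genes averaging 5 TPM (adjusted p = 0.0466 by limma) and without the knockdown muscle of mouse 4 (adjusted p = 0.0295 by limma). Both genes were lower in 4 of 4 mice without overlap of the groups, which was so for 1.01% of all genes tested.

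Of 17 genes for TGF-beta ligands, latency proteins, receptors and responders, all were tested, 14 had a log2FC above 0 (12 with median-ratio scaling) and none passed the adjusted p. The shares above 0 over all genes tested were 81.8%, and 48.0% with that scaling. The median of the 17 was 0.14. The ligands *Tgfb1* and *Tgfb2* had log2FC values of -0.056 and 0.13 (adjusted p = 0.848 and 0.359 by limma).

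Of 22 matrix partners, all were tested and all had a log2FC above 0, beside 81.8% of all genes tested. With median-ratio scaling it was 18 of them, beside 48.0% of all genes. The median of these partners was 0.25, and none passed the adjusted p in the fit to all 8 muscles without the block. Among the genes counted here and in the receptor and TGF-beta lists, *Mmp9*, *Tlr4* and *Ltbp2* passed the filter mostly through knockdown muscles, with 1 control muscle each at 1 TPM or more. *Fn1* and *Col1a1*, the genes of fibronectin and of the main chain of collagen I, had log2FC values of 0.19 and 0.57 (adjusted p = 0.770 and 0.340 by limma). *Col12a1* (log2FC 1.41, adjusted p = 0.187 by limma) and the collagenase gene *Mmp13* (log2FC 2.47, adjusted p = 0.147 by limma) met the thresholds of the study with the P of limma. *Mmp13* followed the order of *Tnn* among knockdown muscles in part, at 9.13, 59.9, 19.5 and 58.1 TPM in mice 1 to 4. *Lox*, which encodes lysyl oxidase, the crosslinking enzyme that periostin assists, was chosen after its values were seen. It was at 5.64 ± 1.17 and 8.78 ± 0.754 TPM (SD, n = 4 each) and was higher in 4 of 4 mice without overlap, as were 10.6% of all genes tested (log2FC 0.57, adjusted p = 0.137 by limma, and 0.0390 with the block, but not with block and median-ratio scaling together).

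The thrombospondins are folded in the endoplasmic reticulum, where thrombospondin 4 is known to bind the stress sensor encoded by *Atf6*. Of 6 genes of endoplasmic reticulum stress, 3 had a log2FC above 0, beside 81.8% of all genes tested. None of the 6 met a criterion, and their median was 0.056. *Atf6* had a log2FC of -0.00050 and *Hspa5* one of -0.11 (adjusted p = 0.998 and 0.638 by limma). Immediate-early and growth-response transcription factors are a class to which AP-1 and known regulators of *Thbs1* belong. All 11 listed had a log2FC below 0 under each scaling, with a median of -0.47. Of all genes tested, 81.8% had a log2FC above 0, and 48.0% with median-ratio scaling. None of the 11 passed the adjusted p in the fit to all 8 muscles without the block. *Egr1* and *Fos* had log2FC values of -0.43 and -0.43 (adjusted p = 0.420 and 0.481 by limma). *Atf3* was at 115.8 ± 35.1 and 25.4 ± 14.1 TPM (SD, n = 4 each; log2FC -2.23, adjusted p = 0.0575 by limma, and 0.00663 with the block). *Myc* was at 11.0 ± 2.63 and 4.20 ± 1.44 TPM (log2FC -1.21, adjusted p = 0.0760 by limma, and 0.0268 with the block), and *Nr4a1* had a log2FC of -0.67 (adjusted p = 0.145 by limma). Without the knockdown muscle of mouse 4, *Atf3*, *Myc* and *Nr4a1* passed (adjusted p = 0.00643, 0.0198 and 0.0475 by limma). Like *Thbs1*, *Atf3* and *Myc* were highest among knockdown muscles in mouse 4. Among control muscles *Atf3* and *Myc* were lowest in mouse 1, in which *Thbs1* was highest. Whether these factors act on *Thbs1* here was not tested.

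**Figure D4:**
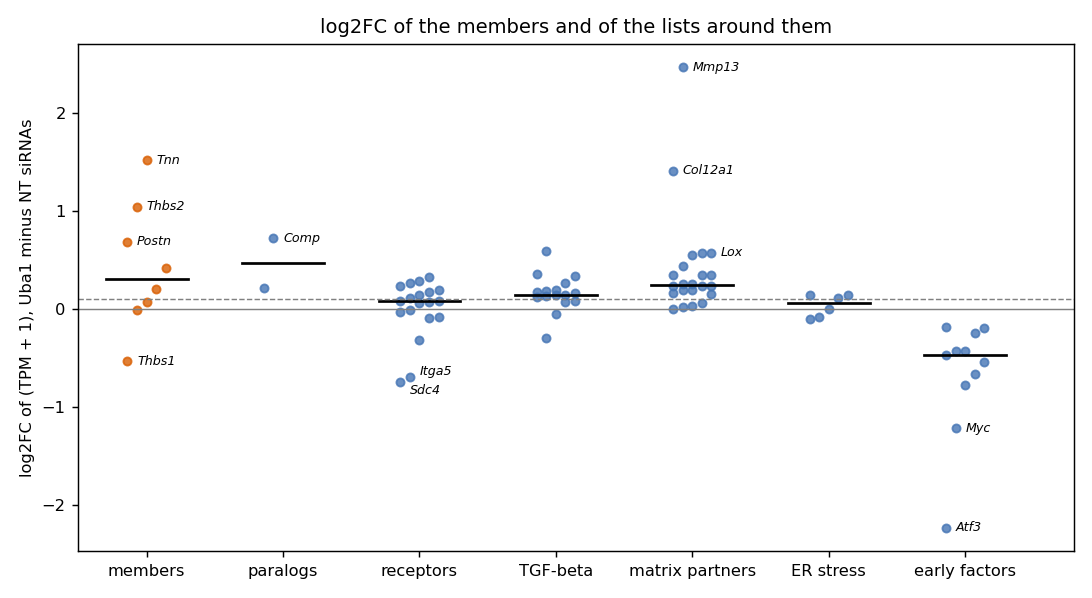
log2FC of TPM + 1 (vertical axis, Uba1 siRNAs minus NT siRNAs) of the 8 genes (orange) and of the tested genes of 6 lists around them (blue, with most but not all of the TGF-beta genes drawn), with a bar at each list's median over all its tested genes; the solid line marks 0 and the dashed line the median of all genes tested, 0.11. The matrix partners lay at or above 0 (median 0.25) and the 11 early factors below it (median -0.47).

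Whole muscle was sequenced, so that more cells of a type and more RNA per cell cannot be told apart. Markers of bone-forming cells were set beside *Tnn* and *Thbs2*. Of 9 osteoblast and periosteum markers, 4 passed the filter, of which *Omd* reached 1 TPM in knockdown muscles alone and *Bglap* in 1 control and 3 knockdown muscles, so that no count over them is read. The summed level of all 9 was 18.03, 11.7, 10.9 and 11.7 TPM with NT siRNAs and 14.4, 43.0, 21.7 and 46.4 TPM with *Uba1* siRNAs in mice 1 to 4, high in the same knockdown muscles of mice 2 and 4 as *Tnn*. In mouse 1 the sum was lower in the knockdown leg, as was *Tnn*, whereas *Thbs2* was higher there. *Ibsp*, the gene of bone sialoprotein, rests on 2.03 ± 1.07 and 12.9 ± 10.1 TPM (SD, n = 4 each; log2FC 1.86, adjusted p = 0.197 by limma), *Bglap*, of osteocalcin, on a log2FC of 1.22 (adjusted p = 0.174 by limma), and *Omd*, of osteomodulin, on a log2FC of 0.80 (adjusted p = 0.143 by limma). *Bglap* has near-identical neighbours, so its TPM is uncertain. The defining transcription factors *Sp7* and *Runx2* stayed below the filter, at 0.230 and 0.469 TPM with NT siRNAs and 0.866 and 0.871 TPM with *Uba1* siRNAs. The part of these cells in the values of *Tnn* and *Thbs2* was not tested.

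Tendon cell markers summed to 121.1, 41.2, 70.8 and 65.1 TPM with NT siRNAs and to 102.7, 91.5, 91.5 and 105.3 TPM with *Uba1* siRNAs in mice 1 to 4. Like *Tnc*, they were highest in the control muscle of mouse 1, lowest in that of mouse 2 and alike in the knockdown muscles. Of the 7 markers, 6 were tested, 5 had a log2FC above 0 (beside 81.8% of all genes tested) and none met the criterion. *Scx* and *Tnmd*, which define these cells, had log2FC values of 0.42 and 0.22 (adjusted p = 0.244 and 0.659 by limma). Fibroblast markers summed to 610.9 to 840.1 TPM with NT siRNAs and 572.1 to 964.2 TPM with *Uba1* siRNAs. Most of this sum was *Gsn*, at 384.7 to 472.2 TPM and 334.2 to 511.4 TPM. Of the 10 markers, 7 had a log2FC above 0, or 4 with median-ratio scaling, beside 81.8% and 48.0% of all genes tested. Macrophage markers summed to 154.0 to 488.9 TPM and 142.4 to 508.7 TPM. Of the 9 markers, 6 had a log2FC above 0, or 3 with that scaling, beside the same shares of all genes. In muscles with *Uba1* siRNAs, both sums were highest in mice 3 and 1, as were *Postn*, *Thbs3* and *Tnxb*. Among knockdown muscles these mice also had the highest sums of platelet, satellite cell, Schwann cell, fast fiber, and smooth muscle and pericyte markers. Schwann cell markers summed to 73.6 to 105.4 TPM with NT siRNAs. With *Uba1* siRNAs they summed to 119.1, 60.9, 112.2 and 56.7 TPM in mice 1 to 4. The part of these cells in the levels of the 8 genes was not tested.

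Platelets store thrombospondin 1, so their markers were set beside *Thbs1*. *Pf4* and *Ppbp* were the 2 of 7 platelet markers that passed the filter (*Ppbp* through 4 control muscles and 1 knockdown muscle), with log2FC values of -0.051 and -0.29 (adjusted p = 0.935 and 0.280 by limma), and the defining *Itga2b* and *Gp9* were under 1 TPM on average in both groups. The summed level was 9.94, 15.7, 19.5 and 11.2 TPM with NT siRNAs and 17.2, 8.37, 18.1 and 9.40 TPM with *Uba1* siRNAs in mice 1 to 4. *Ppbp* was lower with *Uba1* siRNAs in 4 of 4 mice and *Pf4* in 3 of 4. The part of platelets in the level of *Thbs1* was not tested. Endothelial markers, 8 of 8 tested, summed to 136.7 to 203.1 TPM and 150.9 to 188.4 TPM, with a median log2FC of 0.0059. *Pecam1* and *Cdh5* had log2FC values of -0.014 and 0.026 (adjusted p = 0.926 and 0.911 by limma).

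**Figure D5:**
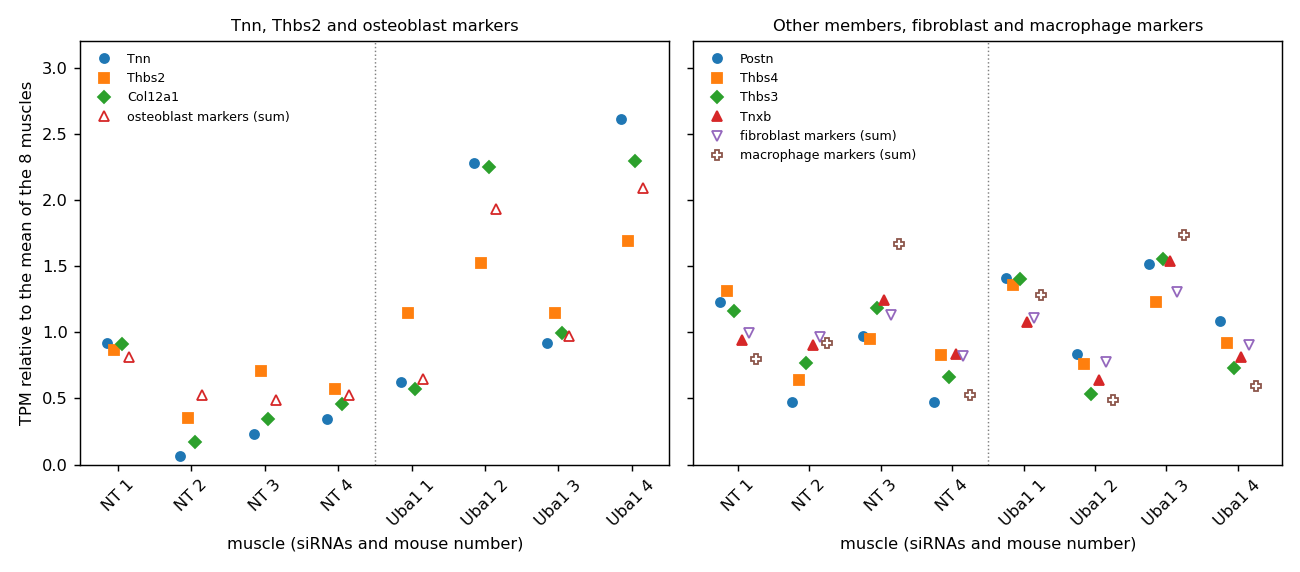
Level of each gene (filled symbols, TPM) and of each summed marker list (open symbols, summed TPM) divided by its mean over the 8 muscles (vertical axis), for each muscle (horizontal axis). On the left, Tnn, Thbs2, Col12a1 and the osteoblast markers were highest in the knockdown muscles of mice 2 and 4, and on the right Postn, Thbs4, Thbs3, Tnxb and the fibroblast and macrophage markers were higher in mice 1 and 3 than in mice 2 and 4 in the knockdown muscles.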

How the data were processed

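RNA of 8 TA muscles was sequenced by the authors (TruSeq RNA v2 libraries, NovaSeq, paired-end reads). Per the paper's methods the authors mapped quality-trimmed reads with CLC Genomics Workbench (mouse build GRCm39) and deposited one TPM value per gene and muscle. The annotation, the strand setting and the treatment of reads that match several genes are not given in the sources used here. TPM keep no read number, so no counting interval is given, and the number of muscles limits the precision. The mitochondrial genome took 39.9% to 50.3% of the TPM.

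From the TPM, log2(TPM + 1) was computed, genes that reached 1 TPM in 4 muscles or more were kept, and limma 3.58.1 (R 4.3.3; lmFit, eBayes with trend) was fitted to all 11530 such genes without covariates, with Benjamini-Hochberg adjustment. Equal replicate numbers mark the 2 legs of a mouse, per the labels and the methods. The correlation of deviations between legs was -0.00037, 0.20, 0.58 and 0.54 for mice 1 to 4. Between legs of different mice it ran from -0.57 to 0.45, at its upper end above the values of mice 1 and 2. The block on the mouse is an alternative because the study's test of RNA did not use it.

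The 8 genes and all lists were chosen with earlier results of these data known. Named from each list were its first 2 genes and those that passed the adjusted p or met the criterion (P of limma under 0.05, not adjusted, and a log2FC of more than 0.58 in size; the study used a Kruskal-Wallis P); named as most alike were the 5 genes with the highest r for *Thbs1*, *Thbs2*, *Tnn*, *Postn* and *Tnc*. Exceptions, picked after their values were seen, are *Lox*, *Mmp9*, *Tlr4*, *Ltbp2*, *Itga2b*, *Gp9*, *Sp7*, *Runx2*, *Des*, *Fmod* and *Gsn*. Positions, exons and promoters come from GENCODE M39 and the GRCm39 sequence. Protein sequences were not used here. Some genes that this rule takes in are not reported here. The alternatives were pseudocount 0.1, no filter, a mean of 5 TPM or more, quantile normalization, median-ratio scaling, leaving the mitochondrial genes out of the TPM, the block with and without median-ratio scaling, the Kruskal-Wallis test and leaving out each muscle.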

Additional observations from a re-analysis of the deposited data

How the results depend on the processing

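The mouse as a replicate block leaves a log2FC as it is. It narrowed the standard errors of *Postn*, *Thbs4*, *Tnc*, *Thbs3* and *Tnxb* and slightly widened those of *Tnn*, *Thbs2* and *Thbs1*. *Tnn*, *Thbs2*, *Postn*, *Tnc* and *Thbs4* stayed above 0 and *Thbs1* below 0 in every alternative that gave a value, while *Thbs3* (-0.13 to 0.32) and *Tnxb* (-0.22 to 0.18) changed sign with single muscles left out. With 1 muscle left out, *Tnn* went from 1.24 to 1.86, *Thbs2* from 0.84 to 1.19, *Postn* from 0.49 to 0.93, *Tnc* from 0.22 to 0.64, *Thbs4* from 0.040 to 0.39 and *Thbs1* from -0.73 to -0.39. *Tnn* was 2.21 with pseudocount 0.1. *Tnn* and *Tnc* have a mean under 5 TPM and gave no value with that filter. *Tnn* no longer met the criterion with the Kruskal-Wallis test. *Thbs1* met it without control or knockdown mouse 4, *Postn* without control mouse 1 or 3, knockdown mouse 2 or the mitochondrial genes, and *Tnc* without control mouse 1.

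The adjusted p of limma was passed by 57 genes with the replicate block, 82 when median-ratio scaling was added to it, 28 with quantile normalization and 28 with median-ratio scaling alone, 13 without mitochondrial genes, 11 with a mean of 5 TPM or more, 2 to 39 with 1 muscle left out (39 without knockdown mouse 4, 6 without control mouse 1, 5 without control mouse 3 or knockdown mouse 2) and 0 with the Kruskal-Wallis test, against 3. The criterion was met by 20 higher genes among those averaging 5 TPM, 28 with quantile normalization, 29 with median-ratio scaling, 151 with pseudocount 0.1, 87 without mitochondrial genes and 51 to 82 with 1 muscle left out (82 without control mouse 1), against 51, and by 159 lower genes with block and median-ratio scaling together (79 to 118 with 1 muscle left out), against 96. The Kruskal-Wallis test, unadjusted, left 36 higher and 82 lower genes. *Uba1* passed with a log2FC of -1.98 with the replicate block and among genes averaging 5 TPM, -2.10 with median-ratio scaling with or without the block, -2.06 with quantile normalization and -2.0 without mitochondrial genes. With 1 muscle left out its log2FC went from -2.18 to -1.64, and it passed without knockdown mouse 2 or 4. With 4 muscles per group, the Kruskal-Wallis P cannot fall below that of groups that do not overlap. Such groups were found for 10.6% (higher) and 1.01% (lower) of all genes, so no gene could pass that test after adjustment. The cause of the other changes was not tested.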

Other observations

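The counts above 0 of these further lists stand beside 81.8% of all genes tested, or 48.0% with median-ratio scaling. Neutrophil markers summed to 16.6 to 54.1 TPM with NT siRNAs and 28.6 to 65.1 TPM with *Uba1* siRNAs. Of them, 4 of 6 were tested, 4 with a log2FC above 0 (4 with median-ratio scaling). *S100a8* and *S100a9* had log2FC values of 0.63 and 0.46 (adjusted p = 0.334 and 0.488 by limma). Cartilage markers summed to 4.35 to 5.34 TPM with NT siRNAs and 4.26 to 7.06 TPM with *Uba1* siRNAs, and 2 of 6 were tested, 1 with a log2FC above 0 (1 with median-ratio scaling). *Col11a1* and *Sox9*, which met the criterion in opposite directions, had log2FC values of 0.82 and -0.60 (adjusted p = 0.162 and 0.182 by limma). Markers of vascular smooth muscle and pericytes summed to 1537 to 1756 TPM with NT siRNAs and 1604 to 1942 TPM with *Uba1* siRNAs, and 8 of 8 were tested, 4 with a log2FC above 0 (2 with median-ratio scaling). Most of this sum was *Des*, which muscle fibers also express, at 1159 to 1448 TPM and 1341 to 1657 TPM, and without it the sums were 241.4 to 377.3 TPM and 263.1 to 285.3 TPM. *Acta2* and *Myh11* had log2FC values of -0.24 and -0.30 (adjusted p = 0.508 and 0.340 by limma). Satellite cell and regeneration markers summed to 64.7 to 122 TPM with NT siRNAs and 51.6 to 121 TPM with *Uba1* siRNAs, and 8 of 8 were tested, 3 with a log2FC above 0 (3 with median-ratio scaling). *Pax7* and *Myf5* had log2FC values of 0.15 and -0.04 (adjusted p = 0.634 and 0.898 by limma). Fast fiber markers summed to 125413 to 137507 TPM with NT siRNAs and 95965 to 139335 TPM with *Uba1* siRNAs, and 8 of 8 were tested, 1 with a log2FC above 0 (1 with median-ratio scaling). *Acta1* and *Ckm* had log2FC values of -0.17 and -0.05 (adjusted p = 0.508 and 0.786 by limma). *Pdgfra* and *Dpt* had log2FC values of 0.30 and -0.21 (adjusted p = 0.544 and 0.731 by limma). *Adgre1* and *Cd68* had log2FC values of -0.04 and -0.30 (adjusted p = 0.955 and 0.688 by limma). The part of these cells in the levels of the 8 genes was not tested.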
